A study of Mus musculus with 6 samples.

Results

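The 43 genes described here are transcription factor genes that pattern the brain, eye, spinal cord and neural crest, from Pax6, Otx2 and Neurog1 to Olig2, Lhx5 and Sox10. They were taken from a named list and stand among 21701 protein-coding genes with a unique symbol in the annotation. All 43 were found. The peak lists came from wild type mouse embryos of the strain B6CBAF1, labelled E12, whose forelimb buds had been divided into distal (DFL, the future digits) and proximal tissue (PFL, the future forearm and upper arm). Each piece had 1 ChIP-seq library for H3K27me3, 1 for H3K27ac and 1 for CTCF, a protein that binds at many borders of chromatin domains. Lists for the transcription factors HOXA13 and HOXD13, which are made in the distal limb, came from whole forelimb buds of an earlier stage and belong to none of the 6 samples. Each ChIP library came from a pool of tissues, per the study's methods. The labels give neither the number of embryos behind a library nor a replicate, so no test was possible and all differences below are between 2 libraries. A limb piece also holds several cell types, and fewer cells carrying a mark cannot be told apart from less of the mark per cell.

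H3K27me3 is deposited by the Polycomb complex PRC2 over developmental genes that a tissue does not use. It often spreads over many kilobases around CpG-rich promoters. H3K27ac marks active promoters and enhancers, and a single histone tail cannot carry both marks at the same lysine. The genes of the list are textbook Polycomb targets outside the nervous system, where the neuronal programmes they direct are not needed.

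The promoters shown here are the 250 bases before the RefSeq start (GRCm38.p6) for 4 genes on which the results turn. Pou3f3 was acetylated in both pieces, Phox2a had the strongest H3K27me3 region at a promoter among the genes with an entry, Pou4f1 had the highest CpG ratio and Neurod4 had no H3K27me3 in its surroundings. Capitals mark CpG dinucleotides, and each sequence is written 5′ to 3′ on the strand of the gene. The 250 bases hold 15 CpGs at Pou3f3, 22 at Phox2a, 47 at Pou4f1 and 2 at Neurod4.
Pou3f3, chr1:42695518-42695767, plus strand: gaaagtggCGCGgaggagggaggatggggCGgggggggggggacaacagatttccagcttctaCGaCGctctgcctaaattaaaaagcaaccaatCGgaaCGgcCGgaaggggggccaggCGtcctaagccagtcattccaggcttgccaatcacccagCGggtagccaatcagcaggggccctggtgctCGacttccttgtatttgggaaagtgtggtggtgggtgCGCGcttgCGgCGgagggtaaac
Phox2a, chr7:101818063-101818312, plus strand: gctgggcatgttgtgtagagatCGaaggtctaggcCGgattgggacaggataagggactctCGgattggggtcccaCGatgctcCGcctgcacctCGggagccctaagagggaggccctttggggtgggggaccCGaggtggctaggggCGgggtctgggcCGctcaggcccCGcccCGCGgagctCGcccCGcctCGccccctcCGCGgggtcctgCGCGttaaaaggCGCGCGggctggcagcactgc
Pou4f1, chr14:104468000-104468249, minus strand: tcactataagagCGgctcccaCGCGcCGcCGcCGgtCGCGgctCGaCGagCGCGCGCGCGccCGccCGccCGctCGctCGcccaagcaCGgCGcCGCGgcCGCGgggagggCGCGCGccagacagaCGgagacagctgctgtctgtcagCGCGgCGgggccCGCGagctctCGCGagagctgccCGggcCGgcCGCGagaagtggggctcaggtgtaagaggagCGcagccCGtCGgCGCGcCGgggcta
Neurod4, chr10:130280255-130280504, minus strand: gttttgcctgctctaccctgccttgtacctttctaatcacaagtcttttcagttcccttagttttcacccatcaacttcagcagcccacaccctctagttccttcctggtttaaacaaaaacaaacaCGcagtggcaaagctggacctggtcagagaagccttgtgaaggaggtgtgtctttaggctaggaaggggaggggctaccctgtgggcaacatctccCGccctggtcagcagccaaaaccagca

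Of the 43 genes, 36 matched an entry of the RefSeq promoter table. Otx1, Olig1, Lhx5, Gbx1, Sox10, Sim2 and En2 had none. Over the 300 bases from 250 before to 50 after the start, the median ratio of observed to expected CpG was 0.792 in the 36 promoters and 0.604 in 16416 promoters of all genes. The CpG-rich class, with a ratio of at least 0.6 and a GC content of at least 50%, held 24 of the 36 (66.7%) against 47.9% of all promoters. Pou4f1, a factor of sensory neurons, had the highest ratio with 1.24. Neurod4, a bHLH factor of differentiating neurons, had the lowest with 0.197, followed by Olig3 with 0.252. The ratio was not higher in genes with an H3K27me3 region at the promoter in either piece. Its median was 0.744 in 24 such genes and 0.802 in the 12 without. For 3 genes (Nkx2-2, Otx2 and Six3) the RefSeq start lay more than 5 kb from the annotated 5′ end used below.

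Nearly all of these genes lay in H3K27me3 surroundings in both pieces of the limb bud. Regions within 50 kb of the 5′ end were listed in both DFL and PFL for 42 of 43 genes, against 36.9% of all genes. Counted at the promoter, within 2 kb of any basic transcript start, H3K27me3 was listed for 21 genes in DFL (48.8%, Wilson 95% interval 34.6 to 63.2) and 26 in PFL (60.5%, 45.6 to 73.6). The background was 16.6% of all genes in DFL and 20.2% in PFL. When both lists held the same number of regions the order of the pieces turned, with 21 genes in DFL and 18 in PFL (41.9%, 28.4 to 56.7), against 16.6% and 17.1% of all genes. Intervals cover counting error only. The exception within 50 kb was Neurod4 (chr10:130268152-130280240, minus strand). The distance from it to the closest H3K27me3 region was 1345359 bp for DFL and 1344845 bp for PFL.

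**Figure D1:**
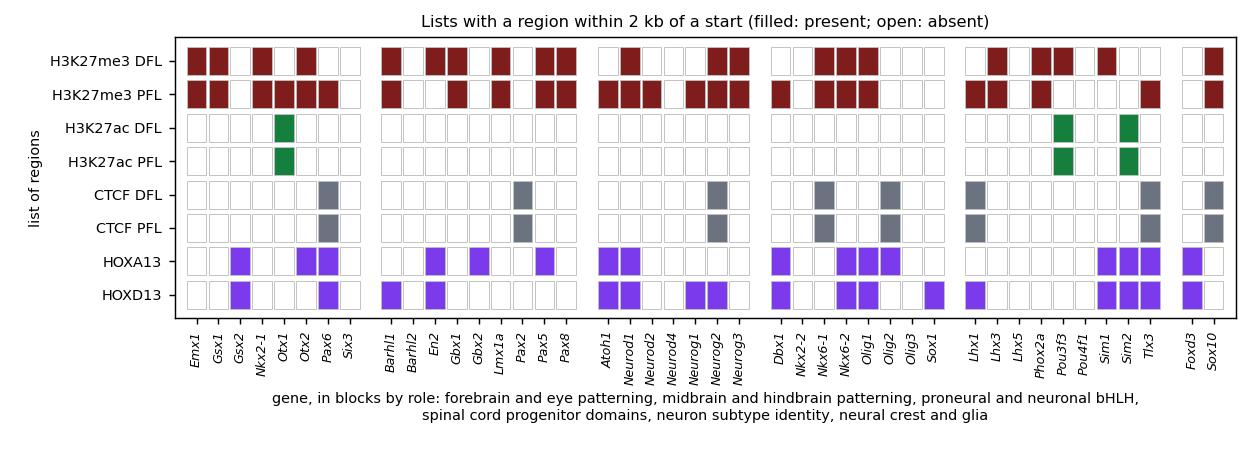
Presence of a region within 2 kb of a transcript start for the 43 genes (columns, in blocks by role) in the 8 peak lists (rows); filled squares are present and open squares absent. H3K27me3 was listed at 21 promoters in DFL and 26 in PFL, H3K27ac at the same 3 in both pieces.

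By promoter state, 18 genes had H3K27me3 and no H3K27ac in both pieces (H3K27me3 in both at 16.2% of all genes). They were Pax5, Pax8, Otx2, Neurog2, Neurog3, Neurod1, Olig1, Nkx2-1, Nkx6-1, Nkx6-2, Emx1, Lhx3, Gbx1, Phox2a, Sox10, Barhl1, Gsx1 and Lmx1a. Neither mark was listed at 13 promoters in either piece, those of Pax2, Neurod4, Olig2, Olig3, Nkx2-2, Lhx5, Gbx2, Sox1, Foxd3, Pou4f1, Barhl2, Gsx2 and Six3. Together with Sim2, which had H3K27ac alone, this left 14 promoters without an H3K27me3 region in both lists (79.3% of all genes).

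The other 11 promoters had H3K27me3 in a single list. In PFL alone these were Pax6, Otx1, Neurog1, Neurod2, Lhx1, Atoh1, Dbx1 and Tlx3, 8 of 43 against 4.01% of all genes. In DFL alone they were Pou3f3, Sim1 and En2, 3 of 43 against 0.475%. The PFL list was longer, with 13873 regions against 9083. When both lists were reduced to their 9083 regions of highest −log10 q, 6 genes were marked in DFL alone (1.47% of all genes) and 3 in PFL alone (1.89%), and 15 in both (15.2%). The direction of the single-piece counts therefore turned with the length of the lists. Neurog2, Nkx2-1 and Nkx6-1 moved from both pieces to DFL alone, and Pax6, Otx1, Neurod2, Lhx1 and Dbx1 lost their PFL region.

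The regions behind these calls were weak as the peak caller counts them, although the mark around them was high. Without an input, as was assumed for H3K27me3, MACS2 divides the pileup at a summit by a background taken from the surroundings in the same library. The 32 promoter regions in DFL had folds from 1.61 to 3.73 (median 1.94), and the 50 in PFL from 1.39 to 3.27 (median 1.69). Sox10, a neural crest and Schwann cell factor, had the highest fold in each piece.

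Solving pileup and background from the deposited fold and −log10 p gave a level on another scale, the multiple of the lowest background of the library. On that scale the median local background of the 188 DFL regions near the 43 genes was 13.3, against 3.66 over the whole list. The 285 PFL regions had a median of 15.5 against 3.13. Their median folds were 1.95 in DFL and 1.79 in PFL, below the 3.23 and 2.95 of the whole lists. A small fold here thus went with a raised local background.

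Most promoters without a listed region were not low in their surroundings. Of the 14 promoters with no H3K27me3 region in either list, 12 had a region within 10 kb of the 5′ end in DFL and 13 in PFL. Without Neurod4, the nearest region was 2522 to 13367 bp away in DFL (median 3866 bp) and 2722 to 9662 bp in PFL (median 3723 bp). The highest summit within 10 kb had a median of 30.2 times the lowest background in the 12 genes in DFL and 35.0 in the 13 in PFL. These medians leave out genes without a summit there, Neurod4 in both pieces and Six3 in DFL. Six3 reached only 12.4 within 50 kb in DFL. In the 18 genes marked at the promoter in both pieces the medians were 29.9 and 32.8. The 2 classes covered overlapping ranges, 27.1 to 35.9 against 20.6 to 36.6 in DFL and 29.1 to 38.1 against 22.5 to 37.3 in PFL. Absence of a narrow region at the promoter of Olig2 or Lhx5 was therefore not a measurement of absence of the mark.

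**Figure D2:**
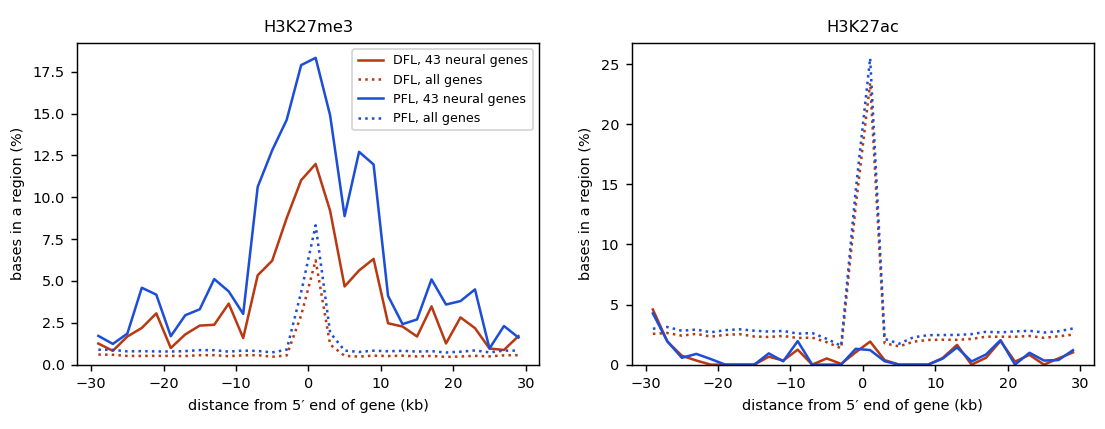
Percentage of bases inside a listed region in 2-kb bins up to 30 kb on each side of the annotated 5′ end, for H3K27me3 (left) and H3K27ac (right); solid lines are the 43 genes and dotted lines all genes, DFL in orange and PFL in blue. For H3K27me3 the 43 genes lie above all genes over most bins, and for H3K27ac they lie below them around the 5′ end.

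In the profile around the 5′ end, H3K27me3 regions covered 11.0% of the bases in the 2 kb before the 5′ end in DFL and 17.9% in PFL. The values for all genes were 2.94% and 4.33%. In the 2 kb after the 5′ end the coverage was 11.99% and 18.3%, against 6.23% and 8.33%. The gap to all genes was wider before the 5′ end than after it. H3K27ac went the other way, with 1.92% in DFL and 1.21% in PFL of the 2 kb after the 5′ end, against 23.4% and 25.5% in all genes.

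The length covered by H3K27me3 regions within 50 kb had a median of 2475 bp in DFL and 4476 bp in PFL. The median of all genes was 0 bp in both. Among all genes, 22 of the 43 were at or above the 90th percentile of covered length in DFL and 33 in PFL. PFL had more covered length than DFL at 42 of the 42 genes with any, but so had 90.4% of all genes with any. With lists of equal size, it had more at 37 genes and less at 5 (Six3, Neurod1, Nkx2-2, Olig1 and Sim2), against 79.8% and 20.1% of all genes. The median difference, DFL minus PFL, was −2170 bp as deposited and −815 bp with lists of equal size. Over the 42 genes with any it was −2179 bp and −844 bp, against −579.5 bp and −408 bp over all genes with any. DFL held 36.8% of the summed length over the 43 genes against 40.1% over all genes, and 42.7% against 43.7% with lists of equal size. With lists of equal size the balance between the pieces thus lay close to that of all genes.

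**Figure D3:**
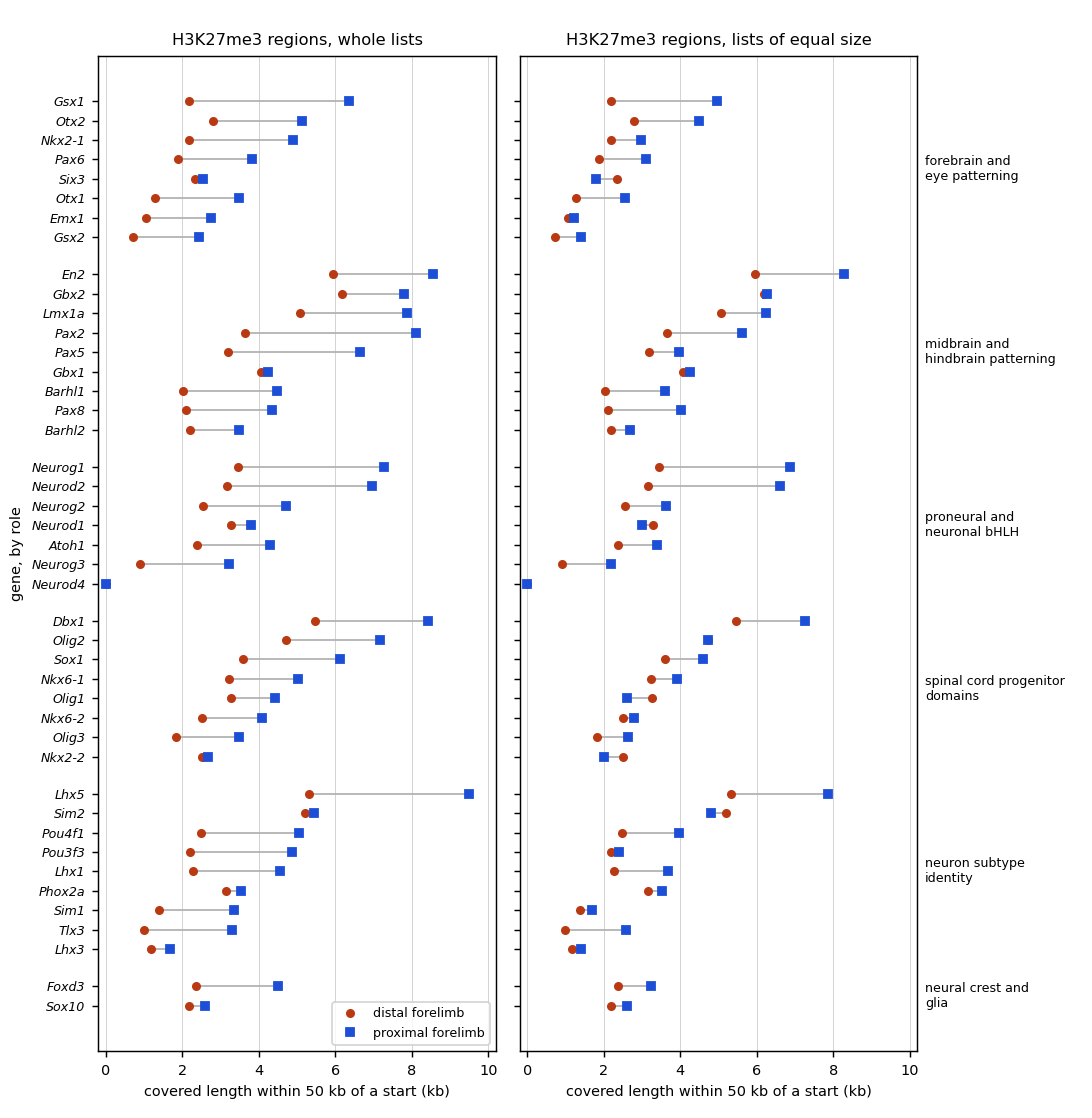
Length covered by H3K27me3 regions within 50 kb of the annotated 5′ end (kb) for each of the 43 genes, DFL as circles and PFL as squares, with the lists as deposited (left) and with lists of equal size (right). In the left panel PFL exceeds DFL at 42 genes and Neurod4 is at 0 in both; in the right panel PFL exceeds DFL at 37.

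Lhx5, a LIM homeobox gene of forebrain and spinal interneurons, had the longest coverage summed over both pieces as deposited, 5321 bp in DFL and 9509 bp in PFL. It was followed by En2, a midbrain and hindbrain gene, with 5951 bp and 8552 bp, which led with lists of equal size (5951 bp and 8291 bp against 5321 bp and 7870 bp for Lhx5). Gbx2, which positions the border of midbrain and hindbrain, had 6187 bp and 7797 bp, the most of the 43 genes in DFL. Of these 3, Lhx5 and Gbx2 had no region at the promoter itself.

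Among the midbrain and hindbrain genes, Pax2 had 3649 bp in DFL and 8101 bp in PFL, the largest difference of the 43 as deposited. With lists of equal size its difference, DFL minus PFL, was −1972 bp, and Neurod2 had the largest with −3451 bp. Lmx1a, a gene of the roof plate and of dopamine neurons, had 5069 bp and 7877 bp. Pax5, a partner of Pax2 at the same border, had 3192 bp and 6656 bp. The 9 genes of this role had the highest medians, 3649 bp in DFL and 6656 bp in PFL. As deposited, 6 of them were marked at the promoter in DFL and 5 in PFL (16.6% and 20.2% of all genes). Gbx1, Barhl1, Barhl2 and Pax8 were the other members, with 2020 to 4061 bp in DFL and 3492 to 4476 bp in PFL.

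The 8 forebrain and eye genes had the lowest DFL median of the roles, 2034 bp, against 3642 bp in PFL. As deposited, promoter regions were listed at 4 of these genes in DFL and 6 in PFL. With lists of equal size Pax6, Otx1 and Nkx2-1 had no PFL promoter region, and the order of the pieces turned. Gsx1, a gene of the ventral forebrain, had 2182 bp in DFL and 6363 bp in PFL, and Nkx2-1, which specifies ventral forebrain and thyroid, had 2184 bp and 4881 bp. With lists of equal size the PFL lengths were 4958 bp for Gsx1 and 2960 bp for Nkx2-1. Pax6, the eye and cortex regulator, had 1886 bp and 3811 bp. Its PFL promoter region (chr2:105667870-105668580) had a fold of only 1.46 over a local background of 26.6 times the lowest.

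Of the 7 proneural and neuronal bHLH genes, Neurog1 had 3456 bp in DFL and 7262 bp in PFL and Neurod2 had 3169 bp and 6968 bp. Both remained wide apart with lists of equal size, at 6871 bp and 6620 bp in PFL. Neurod1, a factor of neurons and endocrine cells, had 3281 bp and 3784 bp as deposited. As deposited, the promoter was listed for H3K27me3 in 3 of the 7 genes in DFL and 6 in PFL, with Neurod4 unmarked in both. With lists of equal size Neurog2 and Neurod2 had no PFL promoter region.

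Among the 8 spinal cord progenitor genes, Dbx1 had 5465 bp in DFL and 8423 bp in PFL. Olig2, which specifies motor neurons and oligodendrocytes, had 4719 bp and 7160 bp, and its neighbour Olig1 had 3269 bp and 4414 bp. The starts of Olig1 and Olig2 were 44315 bp apart, so their windows share regions and the 2 genes are not separate observations. With lists of equal size Olig2 had 4719 bp in DFL and 4724 bp in PFL. Promoter regions were listed at 3 of the 8 genes in DFL and 4 in PFL.

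The 9 neuron subtype genes had promoter H3K27me3 at 4 in each piece as deposited, with median lengths of 2274 bp and 4544 bp. With lists of equal size Lhx1 had no PFL promoter region. Sim2, a gene of midline and muscle cells as well as neurons, had 5209 bp and 5438 bp. Tlx3, which specifies excitatory sensory interneurons, had 984 bp and 3304 bp. Of the 2 neural crest genes, Sox10 had 2182 bp and 2595 bp, and Foxd3 had 2364 bp and 4500 bp. Sox10 was marked at the promoter in both pieces and Foxd3 in neither.

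The level of the mark differed less between the pieces than its covered length. The highest H3K27me3 summit within 10 kb stood at a median of 30.3 times the lowest background in DFL (20.6 to 37.2, 41 genes) and 34.5 times in PFL (22.5 to 39.0, 42 genes). All genes with a summit had medians of 15.0 and 13.1. The ratio of DFL to PFL had a median of 0.868 over the 41 genes with a summit in both pieces (19.9% of all genes had one in both), against 0.936 over 4326 genes. PFL was higher at 33 of 41 genes (80.5%, interval 66.0 to 89.8), against 62.5% of all genes with a summit in both pieces. Each library was scaled by its own lowest background, 3.06 fragments in DFL and 4.75 in PFL, so the ratio rests on that scaling. Scaled instead by the reads sequenced for each library, the median ratio was 1.005 over the 41 genes and 1.08 over all genes, and PFL was higher at 17 of 41 (41.5%, interval 27.8 to 56.6) against 34.4%. Which piece had the higher level over the 43 genes therefore depended on the scaling.

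**Figure D4:**
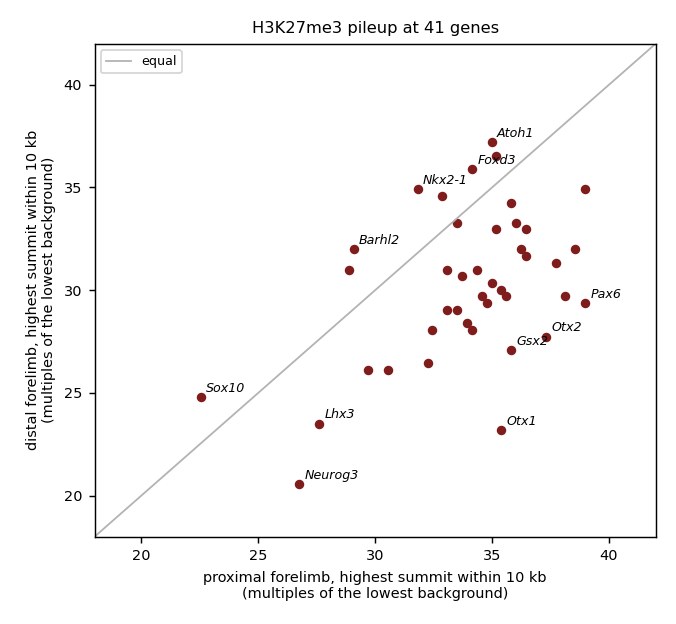
Highest H3K27me3 summit within 10 kb of the 5′ end in PFL (horizontal) and DFL (vertical), as multiples of the lowest background of each library, for the 41 genes with a summit in both; the axes start at 18 and the grey line marks equal values. Otx1 lies farthest below the line at 35.4 in PFL and 23.2 in DFL, and 33 genes lie below it, or 17 when scaled by the reads sequenced.

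Otx1, a homeobox gene of forebrain and sense organs, had the lowest ratio, 0.655, with a summit of 23.2 in DFL and 35.4 in PFL. Otx2 followed with 0.744 (27.7 and 37.3), then Pax6 with 0.753 (29.4 and 39.0) and Gsx2 with 0.756 (27.1 and 35.8). Scaled by the reads sequenced, these 4 ratios were 0.757, 0.860, 0.872 and 0.875. That scaling multiplies every ratio by the same factor, so the order of the genes could not change. The 7 forebrain and eye genes with a summit in both pieces had a median ratio of 0.756, the lowest of the 6 roles, although Nkx2-1 and Gsx1 among them were above 1. The roles other than neural crest ranged up to 0.904. On the scale of the lowest background the ratio was above 1 for Sox10 and Barhl2 (both 1.10), Nkx2-1 (1.098), Gsx1 (1.07), Atoh1 (1.06), Foxd3 and Dbx1 (both 1.05) and Neurog2 (1.04).

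H3K27ac was sparse around these genes. It was listed at the promoters of Otx1, Pou3f3 and Sim2 in both pieces and at no other promoter of the 43, so 6.98% were acetylated (interval 2.40 to 18.6). Among all genes the shares were 59.2% in DFL, 61.6% in PFL and 58% in both. No promoter was acetylated in a single piece, which allows a share of up to 8.20% by the interval (all genes 1.16% in DFL alone and 3.59% in PFL alone). Within 50 kb, 23 genes had H3K27ac in DFL and 22 in PFL, against 79.5% and 81.4% of all genes. The median covered length was 310 bp in DFL and 258 bp in PFL, against 2410 bp and 2884 bp.

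Otx1 (chr11:21994764-22002897, minus strand) was a gene at which both marks differed. In DFL it had 4 H3K27ac regions at the promoter, with folds of 1.98, 1.88, 2.03 and 1.78, of which 3 had their summit in an intron of the gene and 1 before it. In PFL it had 1, at chr11:22002065-22002322, with a fold of 2.51. The covered length within 50 kb was 2424 bp in DFL and 258 bp in PFL, the largest H3K27ac difference of the 43 in favour of DFL. The folds again hid the level, because the highest summit within 10 kb was 5.60 times the lowest background in DFL and 2.78 in PFL. The local background at the DFL regions was 2.59 to 2.72 times the lowest, against 1.06 in PFL. Together with its H3K27me3 summits of 23.2 in DFL and 35.4 in PFL, more H3K27ac stood beside less H3K27me3 in DFL, under both scalings of H3K27me3. Its H3K27me3 promoter region in PFL (chr11:22003505-22003778) had a fold of 1.39 and was lost with lists of equal size.

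Pou3f3 (chr1:42695768-42703176, plus strand), a POU factor of forebrain and kidney, was acetylated just before its start in both pieces. The DFL region chr1:42694994-42695336 had a fold of 4.0 and the PFL region chr1:42694980-42695395 a fold of 4.97, over a local background of 1.0 in each. They end before the 250 bases printed above and lie in an exon of a transcript that overlaps the gene on the same strand. PFL had 3 acetylated regions at the promoter and DFL 1, with 5274 bp and 3153 bp within 50 kb. The other 2 PFL promoter regions had their summits in an exon and an intron of the noncoding gene Pantr1. A further region in an intron of Pantr1, with its DFL summit at −8922 bp from the 5′ end, had folds of 5.39 in PFL and 5.36 in DFL. H3K27me3 summits reached 31.0 in DFL and 34.3 in PFL within 10 kb, and a region of fold 2.01 was listed at the promoter in DFL alone. Both marks were thus listed within 2 kb of the start in DFL (8.84% of all genes), and in PFL this was so for Otx1 (12.8%). These data do not say whether both marks lie in the same cells.

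Sim2 had weak H3K27ac in its first exon and intron, with folds of 2.59 and 2.52 in DFL and 2.33 in PFL. A further PFL region in an intron, just outside the promoter window with its summit at 2368 bp, had a fold of 2.95 and overlapped no DFL region. From its starts the closest H3K27me3 lay at a distance of 5548 bp for DFL and 7022 bp for PFL.

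Much of the H3K27ac near the other genes lay at promoters of neighbours. Of 70 DFL regions near the 43 genes, 7 lay at a promoter of the list, 22 at the promoter of another protein-coding gene and 41 elsewhere. Of 72 in PFL the numbers were 5, 21 and 46. All H3K27ac within 50 kb of Tlx3 (1799 bp in DFL and 1985 bp in PFL) was at the promoter of Npm1, an abundantly expressed nucleolar gene, and that of Pax5 (1555 bp and 1662 bp) at Zcchc7. The regions of Neurog1 (4423 bp and 5253 bp) included the promoter of Cxcl14, and Phox2a (2568 bp and 2290 bp) that of Inppl1. At Gsx2 (1249 bp and 2103 bp) both DFL regions and 2 of 4 PFL regions were at Chic2, and at Neurod2 (1601 bp and 1853 bp) 2 of 3 in each piece were at Stard3. At Gbx1 (2102 bp and 3087 bp) 3 of 4 DFL regions and 4 of 7 PFL regions were at promoters of other genes, Abcf2 and Asb10 among them. Covered length near a gene is thus not acetylation of that gene.

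Mostly away from neighbouring promoters, Sox10 had 9 acetylated regions in DFL (4512 bp) and 8 in PFL (4947 bp), of which 1 in each piece was at Polr2f. Emx1 had 3 regions in DFL (2281 bp) and 6 in PFL (3731 bp), of which 1 in each piece was at Spr. Lmx1a had H3K27ac in PFL alone, with 5 regions and 1869 bp, 3 of them more than 40 kb before the 5′ end. Nkx2-1 (454 bp) and Gbx2 (202 bp) had it in DFL alone. PFL had more covered length at 14 of the 24 genes with any and DFL at 10, against 78% and 22% of all genes with any. With lists of equal size the numbers were 13 and 11 (72.3% and 27.7%).

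The markers of the tissue were checked on the same lists. All 12 limb mesenchyme genes (Prrx1, Tbx5, Shox2 and others) had acetylated promoters in both pieces, as had 12 of 12 housekeeping genes. Of 12 neuron genes 6 were acetylated in each piece, of 8 glial genes 4 in DFL and 5 in PFL, and of 6 muscle genes 1 in DFL and 5 in PFL. The neuron and glial counts lay near or below the share of all genes, 59.2% in DFL and 61.6% in PFL. Of 6 ectoderm genes 5 were acetylated in DFL and 2 in PFL. Of 6 endothelial genes 6 were acetylated in DFL and 5 in PFL, and of 5 blood genes 2 in DFL and 1 in PFL. Promoter H3K27me3 was listed at 3 of the 12 limb mesenchyme genes in DFL and 8 in PFL, and at no housekeeping gene. It was listed at 7 of the 12 neuron genes in DFL and 8 in PFL, and at 26 and 33 of 48 other neural regulators. The share of all genes was 16.6% in DFL and 20.2% in PFL. Promoter H3K27me3 was thus also listed at genes acetylated in the limb bud, at more of them in the longer PFL list. These marker counts were not repeated with lists of equal size, so they do not show a difference between the pieces. The part of these cell types in the H3K27ac and H3K27me3 values above was not tested.

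HOXA13 and HOXD13 regions were found near these genes more often by length than near other genes. The median covered length within 50 kb was 1498 bp for HOXA13 and 989 bp for HOXD13, against 808 bp and 473 bp in all genes. At the promoter HOXA13 was listed for 16 genes (all genes 31.7%) and HOXD13 for 17 (28.7%), both factors for 12 (22.9%) and either for 21 (37.5%). The shares of 37.2% (interval 24.4 to 52.1) and 39.5% (26.4 to 54.4) have intervals that include the background. In the 2 kb before the 5′ end, HOXA13 covered 6.35% of the bases (all genes 3.66%) and HOXD13 5.65% (2.73%). In the 2 kb after it the values were 1.65% (3.31%) and 1.53% (2.28%), below those of all genes.

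Sequence under the strongest of these regions is shown for the 4 genes with the highest folds that have a promoter entry and a summit outside UTR and coding exons. Each run is 101 bases centred on a summit (GRCm38.p6, plus strand), and capitals mark CAATAAA or its reverse complement TTTATTG, a core that HOX13 proteins are known to bind.
Atoh1, chr6:64728915-64729015, plus strand: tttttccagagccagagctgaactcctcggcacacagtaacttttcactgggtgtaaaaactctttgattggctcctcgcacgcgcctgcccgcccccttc
Gsx2, chr5:75074291-75074391, plus strand: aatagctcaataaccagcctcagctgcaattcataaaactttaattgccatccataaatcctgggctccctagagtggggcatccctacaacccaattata
Tlx3, chr11:33203677-33203777, plus strand: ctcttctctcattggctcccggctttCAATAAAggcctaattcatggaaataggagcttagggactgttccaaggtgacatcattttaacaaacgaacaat
Neurod1, chr2:79455777-79455877, plus strand: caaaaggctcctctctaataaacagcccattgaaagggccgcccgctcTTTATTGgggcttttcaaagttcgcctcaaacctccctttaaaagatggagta

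The core was in 1 of the 4 windows as CAATAAA, at Tlx3, and in 1 as TTTATTG, at Neurod1. In windows of this length it was present at 10.7% of all 66761 HOXA13 summits and 11.9% of all 52660 HOXD13 summits. At points 5000 bp away it was in 2.50% of windows for both lists. Near the 43 genes it was in 25 of 174 HOXA13 windows (14.4%) and 19 of 148 HOXD13 windows (12.8%), close to the whole lists. It was in 2.78% of the 36 promoter windows of 300 bases and in 3.97% of those of all genes. A match describes letters only, and no match at Atoh1 or Gsx2 says only that these letters are not in the window.

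Atoh1, the proneural factor of hair cells and cerebellar granule neurons, had the strongest HOXD13 promoter region (chr6:64728744-64729190, fold 7.71), with its summit at −160 bp from the 5′ end. HOXA13 was listed there with a fold of 5.78. En2 had a HOXD13 region of fold 7.35 (chr5:28165207-28165667) and a weaker HOXA13 region of 3.24. Gsx2, a gene of the lateral ganglionic eminence, had folds of 7.54 for HOXA13 (chr5:75074024-75074543) and 5.70 for HOXD13, in intergenic sequence with the HOXA13 summit at −1260 bp. Tlx3 had 4.94 for HOXA13 and 6.17 for HOXD13. At the other promoters with either factor the folds ran from 2.21 to 4.44, with Neurod1 at the top.

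Both factors were listed at Pax6, Neurod1, Olig1, Nkx6-2, Foxd3, Sim1, Sim2 and Dbx1 as well as at Atoh1, En2, Gsx2 and Tlx3. HOXA13 alone was listed at Pax5, Otx2, Olig2 and Gbx2 (8.77% of all genes), and HOXD13 alone at Neurog1, Neurog2, Lhx1, Sox1 and Barhl1 (5.77%). Of the 3 acetylated promoters, only Sim2 had HOX13. HOX13 regions near the 43 genes lay in H3K27me3 more often than in the lists as a whole, with 22.4% of HOXA13 regions (2.51% of the list) and 23.6% of HOXD13 regions (2.06%) overlapping an H3K27me3 region of either piece. Overlap with H3K27ac was lower, 10.3% and 10.8% against 33.0% and 34.9%. DFL CTCF regions near the 43 genes showed the same directions, with 10.9% in H3K27me3 (3.40% of the list) and 6.29% in H3K27ac (17.1%). The windows of these genes are rich in H3K27me3 and sparse in H3K27ac, so such overlaps are not particular to HOX13. The stage differed between the factor lists and the marks, so the HOX13 overlap joins 2 time points.

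CTCF was listed at the promoters of 8 genes in both pieces (18.6%, interval 9.74 to 32.6, against 32.8% of all genes in DFL, 32% in PFL and 30% in both) and at none in a single piece (all genes 4.77%). These were Pax6, Pax2, Neurog2, Olig2, Nkx6-1, Lhx1, Sox10 and Tlx3. Of 175 DFL CTCF regions near the 43 genes 84.6% overlapped a PFL region, against 88.7% of the list, and of 155 PFL regions 95.5% overlapped a DFL region, against 91.8%. The median length covered by CTCF was 1398 bp in DFL and 1348 bp in PFL, against 1472 bp and 1457 bp in all genes. The length covered by CTCF thus lay close to that of all genes.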

How the data were processed

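The authors trimmed reads with cutadapt, aligned them with Bowtie 2 to mm10 and called peaks with MACS2 for each library. The ChIP commands printed by the study use no input. For H3K27me3 the labels name these tools without settings, and calling without input was assumed there. The deposited lists give per summit a score, a fold enrichment (a ratio of pileup to local background), −log10 p and −log10 q values, and the summit offset. From these lists, lines of the same interval were collapsed to regions on the autosomes and X. Promoters were taken as 2 kb on each side of basic transcript starts (GENCODE vM21), and covered length within 50 kb of the 5′ end. All peaks of the 20 chromosomes lay inside the reference lengths. Pileup and local background were solved from fold = (pileup + 1) / (background + 1) and the Poisson tail, within 0.01 of −log10 p, for at least 99.8% of summits. They were divided by the 0.1th percentile of the backgrounds of the list. The solver was tested on simulated data.

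Members and lists were chosen with earlier results of these data known. Values were printed for members whose promoter state differed between pieces, the 10 with most H3K27me3 or H3K27ac length, the 10 with the largest H3K27me3 difference, those with promoter H3K27ac or HOX13, and the extremes of CpG ratio. Other genes, regions and the forebrain ratio were named after their values were seen. Lists of equal size kept the regions with the highest −log10 q. The lists give no read totals, and the lowest background, 3.06 fragments in DFL and 4.75 in PFL H3K27me3, stood for depth. As an alternative added after seeing the data, H3K27me3 pileups were scaled by the reads sequenced per library, as listed by the study before mapping or removal of duplicates. Analyses used python 3.11.15, pandas 2.3.3, numpy 2.4.6 and scipy 1.17.1.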

Additional observations from a re-analysis of the deposited data

How the results depend on the processing

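Scaling H3K27me3 summits by the reads sequenced, an alternative added after seeing the data, turned the direction between the pieces, with a median ratio of 1.005 and PFL higher at 17 genes. Values resting on narrow regions moved under several other alternatives. Requiring −log10 q of at least 5 left promoter H3K27me3 at 13 genes in DFL, H3K27ac at 1 promoter in PFL and at 1 in DFL alone, HOXA13 at 10 and HOXD13 at 9. A fold of at least 3 left H3K27me3 at 1 promoter in each piece, 0 in DFL alone and 0 in PFL alone, a median length difference of 0 bp, H3K27ac at 1 promoter in each piece and HOXD13 at 11. Such a fold removes regions in broad domains first, since their background is high. Promoters of 5 kb on each side gave H3K27me3 at 35 genes in DFL, 1 in DFL alone and 5 in PFL alone, HOXA13 at 26 and HOXD13 at 29. Lists of equal size turned the order of the pieces at the promoter (21 genes in DFL and 18 in PFL), and gave 6 genes in DFL alone and 3 in PFL alone and a median difference of −815 bp, and windows of 10 kb gave −1185 bp. The share of CTCF regions common to both pieces stayed within the limit set for no change under every alternative. The median H3K27ac difference was 0 bp as deposited and under every alternative. As deposited, 19 genes had no H3K27ac within 50 kb in either piece, while 14 had more in PFL and 10 more in DFL. The genes without H3K27ac held this median at 0 bp, so its constancy does not show that the difference is robust. Of the recomputed values 2 reversed, 22 moved and 68 did neither, with those of the median H3K27ac difference among the 68. The limit for no change in a count was a ratio of 1.5 to the main value. By it the fall of PFL promoters with H3K27me3 from 26 to 18 was no change, although it turned the order of the pieces. No paired analysis was possible because each mark had 1 library per piece. No library could be left out for the same reason. Depth is known here only through the lowest background and the reads sequenced.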

Other observations

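Of 23 genes for Polycomb subunits and H3K27 demethylases, 21 had acetylated promoters in each piece. The share of all genes was 59.2% in DFL and 61.6% in PFL.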
